A study of Mus musculus with 25 samples.

Results

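The genes described here are the glypicans and syndecans of the mouse, the 6 glypicans Gpc1 to Gpc6 and the 4 syndecans Sdc1 to Sdc4. They were chosen by family membership, and all 10 were found by symbol among the 37406 genes of the deposited table. Their RNA was measured in the palate of wild type CD1 mouse embryos at E14.5, soon after the palatal shelves meet, in 25 RNA-Seq libraries made from laser captured tissue. The shelf was divided in 2 ways, into medial and lateral and into oral and nasal compartments, in the anterior and in the posterior palate, which gives 8 compartments that share tissue with each other. There were 3 libraries of each compartment and 4 of the anterior nasal one. The labels give no treatment and the same genotype, strain and age for every library, so that position in the palate is the only labelled difference between the groups, although the names of some alignments carry those of other mouse lines followed by WT. Values are RPKM, reads scaled to the length of the transcript and to the total of reads, and a gene's level can be compared with that of another gene on this scale. The labels do not say which libraries came from the same embryo, so that a p-value here measures the spread between libraries.

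Glypicans and syndecans are the main families of heparan sulfate proteoglycans of the cell surface. Their core proteins carry long sulfated sugar chains that bind growth factors such as FGF, Wnt, BMP and Hedgehog proteins and present them to their receptors or hold them away. Glypicans are tied to the membrane by a lipid anchor and can be shed by the enzyme Notum, while syndecans cross the membrane and bind the cytoskeleton and scaffold proteins such as syntenin through short cytoplasmic tails. FGF, BMP, Wnt and Hedgehog signals between epithelium and mesenchyme drive the growth and patterning of the palatal shelves.

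The totals of reads implied by the RPKM values, for which the authors dropped duplicates and reads that aligned more than once, ran from 1.64 to 6.56 M with a median of 3.27 M. The paper gives a higher average number of reads per sample. Every mesenchymal marker on the list of 6 was detected in every library, with a summed level of 450 to 831 RPKM, against 30.3 to 192 RPKM for 12 epithelial markers. For any gene in such bulk samples, fewer cells that express it and less RNA per cell cannot be told apart. A pair of libraries stood apart from the rest. Posterior medial replicate 2 and anterior oral replicate 1 had median correlations of 0.658 and 0.719 with the other libraries, against 0.782 to 0.886 elsewhere, and fitted differences of the 10 genes that moved by over 1.5 times without them are given with and without them.

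Gpc3 was by far the most abundant of the 10 genes. Gpc3 restrains growth and binds Hedgehog proteins, and its loss in humans causes an overgrowth syndrome. Its level was 204 ± 42.4 RPKM (SD, n = 25), and it ranked first in 25 of 25 libraries. Gpc3 alone made up 32.0% to 49.9% of the summed level of the family in a library. Gpc6, which stimulates Hedgehog signaling and is mutated in a skeletal dysplasia, came next with 72.3 ± 13.8 RPKM (SD, n = 25) and was above Sdc2 in 24 of 25 libraries. Sdc2, the syndecan typical of mesenchymal cells, had 45.6 ± 8.83 RPKM, and Gpc4, a partner of Wnt and FGF signals, had 42.3 ± 10.4 RPKM. The order of Sdc2 and Gpc4 was not stable, since Sdc2 was the higher in 15 of 25 libraries.

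Lower in the order were Sdc1 with 32.7 ± 5.71 RPKM, the syndecan typical of epithelia that mesenchyme also makes, and Gpc2 with 29.1 ± 5.63 RPKM, a glypican best known from developing neurons. Sdc1 was above Gpc2 in 16 of 25 libraries. Sdc4, which acts in focal adhesions, had 18.8 ± 7.89 RPKM, Gpc1, a coreceptor for FGFs, had 15.9 ± 5.93 RPKM and Sdc3, known from neurons and cartilage, had 15.4 ± 6.81 RPKM (SD, n = 25 each). These 3 genes changed places from library to library, and Sdc4 was above Gpc1 in 18 and Gpc1 above Sdc3 in 15 of 25 libraries. Gpc5, another glypican that binds Hedgehog proteins, was the least abundant with 2.84 ± 1.94 RPKM (SD, n = 25), below Sdc3 in 25 of 25 libraries, and it was listed at 0 in 1 library, posterior medial replicate 2. In anterior oral replicate 1 Gpc1 stood at 2.40 RPKM, below Gpc5 at 6.29 RPKM. The glypicans together made up 64.6%, 68.8% and 74.4% of the family's summed level in the posterior nasal libraries and 72.8% to 82.4% in the other 22.

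**Figure D1:**
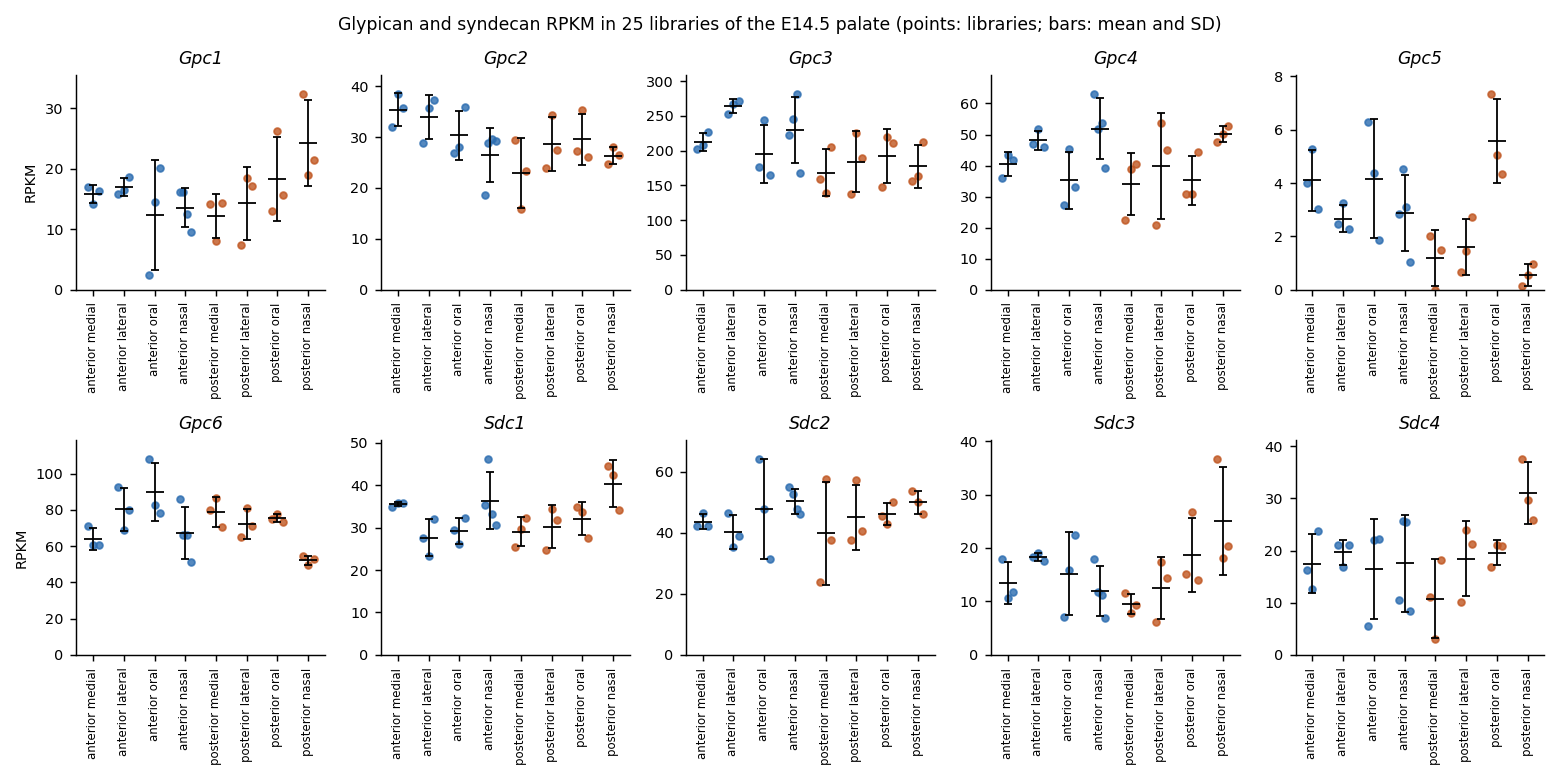
RPKM (linear axis from 0, a scale of its own in each panel) of the 10 genes in the 8 compartments, anterior in blue and posterior in orange, with points for libraries and black bars for the mean and SD. Gpc3 lies between 138 and 281 RPKM in all libraries, and for most genes the points of neighbouring compartments overlap.

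Most of these genes had similar levels throughout the palate. The ratio of the highest to the lowest compartment mean was 1.27 for Sdc2, 1.46 for Sdc1, 1.53 for Gpc4, 1.55 for Gpc2, 1.57 for Gpc3, 1.72 for Gpc6, 2.00 for Gpc1, 2.62 for Sdc3 and 2.88 for Sdc4, and for Gpc5 it was 10.2. When the compartments were ordered by their mean, the libraries of neighbours in the order overlapped in all 7 steps for 7 of the genes and in 6 of 7 steps for Gpc4, Gpc6 and Sdc4. The exceptions lay between anterior lateral and anterior medial for Gpc4, between anterior medial and posterior nasal, the lowest, for Gpc6, and between posterior nasal, the highest, and anterior lateral for Sdc4. Neighbours in an order by mean lie close by construction, and the share of overlapping steps over all genes was not computed. The posterior medial compartment had the lowest mean of 7 genes, Gpc1, Gpc2, Gpc3, Gpc4, Sdc2, Sdc3 and Sdc4, and it holds a library that stood apart. Without both libraries that stood apart it had the lowest mean of 4, Gpc4, Sdc2, Sdc3 and Sdc4, and the ratio of the highest to the lowest mean was 1.63 for Sdc2 and 2.12 for Sdc4. The posterior nasal compartment had the highest mean of Gpc1, Sdc1, Sdc3 and Sdc4 and the lowest of Gpc5 and Gpc6.

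Variation over the 8 compartments was tested with the F test of limma on log2(RPKM + 0.1) for the genes that reached 5 RPKM in 3 or more libraries, and a gene is called when its p-value, adjusted over all 11913 genes as described by Benjamini and Hochberg, is under 0.05. None of the 10 genes was called, against 526 (4.42%) of all genes tested. At an unadjusted P under 0.05 there were 2 of the 10, Gpc5 and Gpc6, against 1434 (12%) of all genes. Gpc5 came nearest. Its highest and lowest compartment means lay 3.32 apart on the log2 scale (adjusted p = 0.0980). It reached the minimum of 5 RPKM in 4 libraries, posterior oral replicates 1 and 2, anterior oral replicate 1 and anterior medial replicate 2. Gpc5 thus passed the minimum only through the compartments where its mean was highest, which also holds for the calls below. Without a minimum its adjusted p was 0.135. Gpc5 was called without posterior medial replicate 2, in which it was listed at 0 (adjusted p = 0.0113), without posterior medial replicate 1 (adjusted p = 0.0338), without both libraries that stood apart (adjusted p = 0.0116) and with a pseudocount of 1 (adjusted p = 0.0195). With a pseudocount of 0.01 its adjusted p was 0.353. Gpc6 spanned 0.76 on the log2 scale (adjusted p = 0.253).

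The oral-nasal axis held the widest contrast of the family, that of Gpc5. In the posterior palate Gpc5 had 7.34, 5.06 and 4.34 RPKM in the oral libraries and 0.151, 0.548 and 0.948 RPKM in the nasal ones. The groups did not overlap, and the means of 5.58 and 0.549 RPKM differed 10.2-fold. In approximate reads, taking the length of the longest coding transcript, the nasal values rest on 2.61 to 6.74 and the oral values on 45.4 to 130 reads. Gpc5 failed the expression minimum of this comparison because only 2 libraries reached 5 RPKM. Fitted without a minimum, its log2 difference was 3.32 (95% interval 1.98 to 4.66), and its adjusted p of 0.126 did not pass among 20679 genes, of which 11 (0.0532%) were called.

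In the anterior palate Gpc5 had 6.29, 4.36 and 1.85 RPKM in the oral libraries and 2.82, 4.53, 3.11 and 1.04 RPKM in the nasal ones. Here the groups overlapped, and the log2 difference without a minimum was 0.53 (95% interval -0.91 to 1.97), or 0.15 without anterior oral replicate 1. Whether the oral-nasal difference itself differed between anterior and posterior palate was tested as an interaction, the anterior difference minus the posterior one, for which Gpc5 passed the minimum through the oral libraries. The contrast of Gpc5 was -2.80 on the log2 scale (95% interval -4.61 to -0.98, adjusted p = 0.625). It was the 1 of the 10 genes with an unadjusted P under 0.05, against 387 (3.38%) of 11442 genes tested, and none of the 10 was called, against 4 (0.0350%) of all.

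Gpc6 was also higher on the oral side. In the posterior palate it had 75.3, 77.6 and 73.2 RPKM in the oral libraries and 54.4, 49.6 and 52.7 RPKM in the nasal libraries. These groups did not overlap, and the spread within each was small, with SDs of 2.22 and 2.41 RPKM. The log2 difference was 0.53 (95% interval 0.10 to 0.96), a 1.44-fold difference, with an adjusted p of 0.409. In the anterior palate Gpc6 had 107.9, 83.0 and 78.1 RPKM in the oral libraries and 86.2, 66.1, 66.0 and 51.0 RPKM in the nasal ones, which overlap. The log2 difference there was 0.42 (95% interval -0.18 to 1.02, adjusted p = 1.000), and it was 0.28 without anterior oral replicate 1.

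Gpc4 ran the other way, with higher values on the nasal side. In the posterior palate it had 30.7, 30.8 and 44.4 RPKM in the oral libraries and 47.7, 50.2 and 52.7 RPKM in the nasal libraries. The groups did not overlap, although posterior oral replicate 3 came near the nasal values. The log2 difference of oral minus nasal was -0.53 (95% interval -1.04 to -0.01, adjusted p = 0.593). In the anterior palate Gpc4 had 27.2, 45.2 and 33.2 RPKM in the oral libraries and 63.0, 51.7, 53.8 and 39.2 RPKM in the nasal libraries. Only the lowest nasal library overlapped with the oral ones, and the log2 difference was -0.57 (95% interval -1.20 to 0.06, adjusted p = 1.000). Without anterior oral replicate 1 it was -0.40.

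Sdc4 was higher in the posterior nasal than in the posterior oral compartment. It had 16.8, 21.1 and 20.8 RPKM in the oral libraries and 37.5, 29.7 and 25.8 RPKM in the nasal libraries, with no overlap. The log2 difference was -0.65 (95% interval -1.17 to -0.13, adjusted p = 0.391). In the anterior palate its values of 5.45 to 22.1 RPKM in the oral and 8.46 to 25.6 RPKM in the nasal libraries overlapped widely. Sdc1 had lower means on the oral side in both, 29.3 against 36.4 RPKM in the anterior and 32.1 against 40.4 RPKM in the posterior palate, with overlapping groups (log2 differences of -0.30 and -0.33). Without anterior nasal replicate 2 the former was -0.18. Gpc2 had log2 differences of 0.21 and 0.16, and its groups overlapped too. These fell to 0.04 without anterior nasal replicate 1 and to 0.02 without posterior oral replicate 2.

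Of the 10 genes, 9 met the minimum of 5 RPKM in at least 3 of the compared libraries in each oral-nasal comparison. None was called by limma in the anterior palate, where 0 of 10684 genes (0%) were, nor in the posterior palate, where 132 of 10586 genes (1.25%) were. At an unadjusted P under 0.05 there were 0 of the 9 in the anterior palate, against 318 (2.98%) of all genes, and 3 of the 9 in the posterior palate, Gpc4, Gpc6 and Sdc4, against 847 (8%). Groups without overlap were found for these 3 of the 9 in the posterior palate, against 11.8% of the genes tested, and for 0 of the 9 in the anterior palate, against 3.67%. Gpc5, which failed the minimum, had no overlap in the posterior palate and overlapped in the anterior palate. The median log2 difference of the 9 genes was -0.16 in the anterior and -0.33 in the posterior palate, against -0.01 over all genes in each. The 95% intervals of 4 of the 9 genes in the anterior and 5 of the 9 in the posterior palate lay within a 2-fold difference.

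Marker genes of several other cell types moved along the same axis. The summed level of 8 endothelial markers was 182 to 239 RPKM in posterior oral and 77.4 to 119 RPKM in posterior nasal libraries, and 159 to 261 against 98.7 to 148 RPKM in the anterior palate. That of 6 osteoblast markers was 379 to 551 RPKM in posterior nasal libraries and 85.7 to 107 RPKM in posterior oral ones, and 92.1 to 118 RPKM in anterior nasal against 47.9 to 74.2 RPKM in anterior oral libraries. The sum of 5 cartilage markers was 8.07 to 15.4 RPKM in anterior oral and 22.9 to 31.0 RPKM in anterior nasal libraries, and 27.7 to 52.1 against 47.9 to 88.7 RPKM in the posterior palate. That of the 12 epithelial markers overlapped, with medians of 75.1 in anterior oral and 113.9 RPKM in anterior nasal libraries and of 41.9 and 75.3 RPKM in the posterior ones. No marker of these lists was at 0 in all 25 libraries, although Bglap of the osteoblast list was at 0 in 14 and Matn1 of the cartilage list in 10. The sum of 6 macrophage markers was 86.9 to 96.3 RPKM in posterior oral and 43.7 to 79.7 RPKM in posterior nasal libraries. In the anterior palate it overlapped, with 37.1 to 73.4 RPKM in oral and 60.0 to 91.3 RPKM in nasal libraries. The sums of 8 skeletal muscle markers and of 8 nerve and Schwann cell markers overlapped in both regions. The part of these cell types in the values of Gpc4, Gpc5, Gpc6, Sdc1 and Sdc4 was not tested.

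Oral and nasal libraries were in part sequenced together. In 5 combinations of palate region and sequencing run, as read from the names of the alignments, both compartments were present, with 1 or 2 libraries of each. Gpc6 was higher in the oral libraries in 5 of 5, by 0.33 to 0.61 on the log2 scale. Gpc5 was likewise higher in 5 of 5, by 0.48 to 4.89, and Gpc4 was lower in 5 of 5, by 0.24 to 1.07 in size. Sdc4 was lower in 4 of 5. These libraries are among those compared above, and the share of all genes with 1 direction in 5 of 5 was not computed. A fit of the 6 oral against the 7 nasal libraries with anterior or posterior as a term, added after the values had been seen, gave log2 differences of -0.55 ± 0.17 for Gpc4 (SE, adjusted p = 0.219), 1.83 ± 0.55 for Gpc5 (adjusted p = 0.225) and 0.47 ± 0.14 for Gpc6 (adjusted p = 0.227). Gpc5 again passed the minimum through oral libraries. None of the 10 was called in it, against 69 (0.603%) of 11442 genes. With the sequencing run within each region as a block, Gpc6 had 0.51 ± 0.14 (adjusted p = 0.243), and 23 genes (0.201%) were called, none of the 10 among them. Without anterior oral replicate 1 the first fit gave -0.47 for Gpc4 and 0.41 for Gpc6, and Gpc5 no longer met the minimum.

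**Figure D2:**
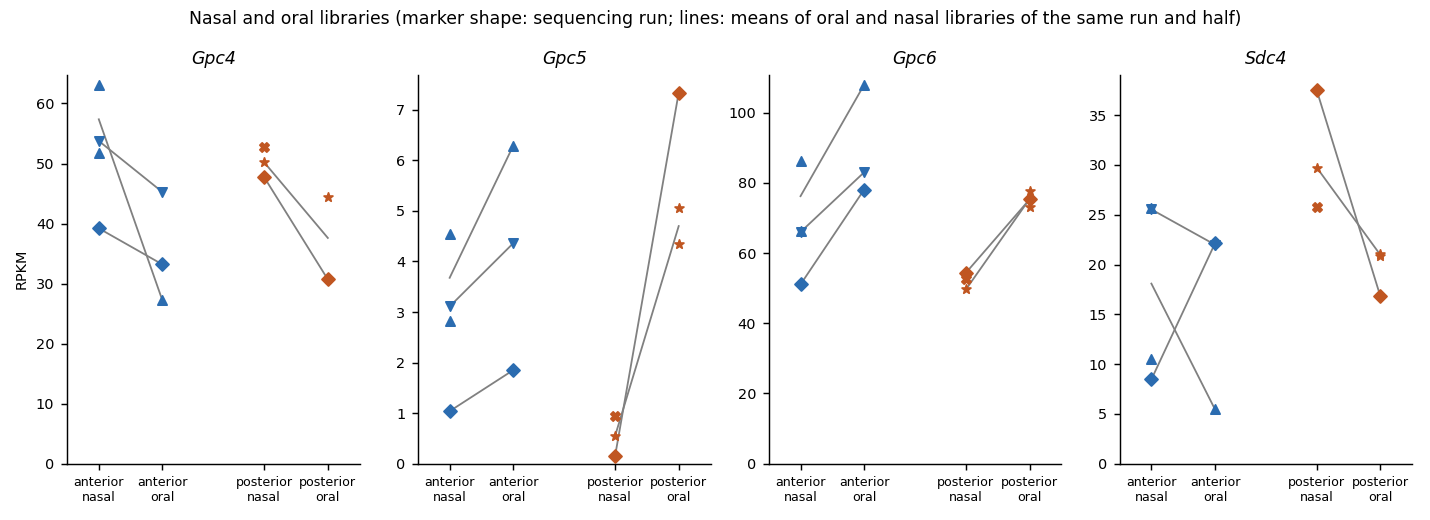
RPKM (linear axis from 0) of Gpc4, Gpc5, Gpc6 and Sdc4 in nasal and oral libraries, anterior in blue and posterior in orange, with the shape of a point for its sequencing run and lines that join the mean nasal and mean oral level of libraries from the same run. All 5 lines rise from nasal to oral for Gpc5 and Gpc6 and all 5 fall for Gpc4, while those of Sdc4 go both ways.

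Gpc4 and Gpc3 lie next to each other on the X chromosome (mm9, X:49406195-49518100 and X:49625604-49967151, 108 kb apart), and Gpc5 and Gpc6 next to each other on chromosome 14 (mm9, 14:115491437-116924414 and 14:117324537-118378751, 400.1 kb apart). Each pair is a neighbouring pair of paralogs. The promoter windows of Gpc3, Gpc4 and Gpc5 are shown because they are the most abundant member, a member with higher means on the nasal side, and the member with the widest range and the oral excess. They are from RefSeq (GRCm38.p6), run from 250 bases before to 50 bases after the start and read 5′ to 3′ along the gene. Capitals mark the GC box GGGCGG on either strand, so that CCGCCC is the same motif on the other strand.
Gpc3, minus strand, chrX:52613925-52614224: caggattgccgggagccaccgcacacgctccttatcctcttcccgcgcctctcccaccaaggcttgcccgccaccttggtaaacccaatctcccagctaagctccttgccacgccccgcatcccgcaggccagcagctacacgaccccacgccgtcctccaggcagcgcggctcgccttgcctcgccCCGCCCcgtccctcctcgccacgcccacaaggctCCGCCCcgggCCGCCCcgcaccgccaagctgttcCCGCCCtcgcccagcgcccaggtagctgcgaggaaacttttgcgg
Gpc4, minus strand, chrX:52164874-52165173: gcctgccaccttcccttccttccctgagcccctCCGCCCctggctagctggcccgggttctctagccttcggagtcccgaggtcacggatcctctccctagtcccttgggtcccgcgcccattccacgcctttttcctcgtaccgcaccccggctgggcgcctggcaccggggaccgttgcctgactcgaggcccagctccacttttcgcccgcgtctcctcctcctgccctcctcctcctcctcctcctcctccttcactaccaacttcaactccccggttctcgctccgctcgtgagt
Gpc5, plus strand, chr14:115091965-115092264: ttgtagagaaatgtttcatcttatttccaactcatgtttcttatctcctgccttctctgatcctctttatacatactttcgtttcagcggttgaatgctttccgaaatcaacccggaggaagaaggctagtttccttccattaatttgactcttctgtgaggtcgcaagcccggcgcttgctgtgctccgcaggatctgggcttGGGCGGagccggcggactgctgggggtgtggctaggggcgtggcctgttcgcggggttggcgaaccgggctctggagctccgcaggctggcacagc

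The window of Gpc3 holds 4 GC boxes and 30 CpG sites, that of Gpc4 holds 1 and 22, and that of Gpc5 holds 1 and 17, where the median of all 32851 promoters is 7 CpG sites. A GC box on either strand is found in 35.7% of all promoters. The letters TATAAA, searched on both strands, are in 1 of the 7 windows available for the family, that of Gpc5, and in 13.6% of all promoters. The letters GACCACCCA, a site for GLI factors of the Hedgehog pathway, are in 0 of the 7 windows and in 0.253% of all promoters. Sites outside these windows were not searched.

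Along the medial-lateral axis the anterior palate showed small differences in Gpc3, Gpc4 and Sdc1. Gpc3 had 252, 267 and 272 RPKM in the anterior lateral libraries and 202, 208 and 226 RPKM in the anterior medial ones, with no overlap. The log2 difference of lateral minus medial was 0.31 (95% interval 0.06 to 0.57), a 1.24-fold difference, with an adjusted p of 0.223. Its neighbour Gpc4 had 47.0, 51.6 and 45.9 RPKM in the lateral and 36.0, 43.3 and 41.9 RPKM in the medial libraries, which also did not overlap. The log2 difference of Gpc4 was 0.26 (95% interval -0.03 to 0.54, adjusted p = 0.388). Gpc6 had a log2 difference of 0.32 (95% interval -0.02 to 0.66, adjusted p = 0.370), but its groups overlapped, and without anterior lateral replicate 1 it was 0.21.

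Sdc1 was lower on the lateral side. It had 27.6, 23.3 and 32.0 RPKM in the anterior lateral and 34.9, 35.9 and 35.8 RPKM in the anterior medial libraries, and the groups did not overlap. The log2 difference was -0.37 (95% interval -0.70 to -0.05, adjusted p = 0.259). Sdc3 had 18.3, 19.0 and 17.6 RPKM in the lateral and 18.02, 10.7 and 11.9 RPKM in the medial libraries, so that 1 medial library reached the lateral values. The log2 difference of Sdc3 was 0.47 (95% interval 0.01 to 0.93, adjusted p = 0.316). Beside these values, the summed level of 8 endothelial markers was 199 to 229 RPKM in anterior lateral and 145 to 168 RPKM in anterior medial libraries, and that of 5 cartilage markers was 9.84 to 13.3 against 19.1 to 36.1 RPKM. The 12 epithelial markers summed to 54.3 to 109.7 RPKM in the lateral and 87.8 to 150.1 RPKM in the medial libraries. The part of these cells was not tested.

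None of the 9 genes that met the minimum was called in this comparison, against 262 (2.51%) of 10427 genes. At an unadjusted P under 0.05 there were 3 of the 9, Gpc3, Sdc1 and Sdc3, against 1566 (15.0%) of all genes. The groups did not overlap for 3 of the 9, against 21.3% of the genes tested. All 9 of the 95% intervals lay within a 2-fold difference, the widest reaching 1.91-fold. Lateral and medial libraries shared no sequencing run in the anterior or the posterior palate, and run and compartment cannot be told apart here. All 25 libraries were also fitted with the run as a term, which takes the run's effect from other compartments. There the value of Sdc1 turned to 0.13 ± 0.37 (SE) and that of Gpc3 fell to 0.12 ± 0.40 (adjusted p = 1.000 for both). That of Sdc3 rose to 0.64 ± 0.99. With errors this wide the fit cannot show whether these differences hold.

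In the posterior palate no gene of the family differed between lateral and medial libraries by more than their spread. Posterior lateral replicate 1 was low for most of the family, with 20.7 RPKM of Gpc4 against 53.6 and 44.9 RPKM in the others, and Gpc3 at 138 against 225 and 190 RPKM. Posterior medial replicate 2 had 3.11 RPKM of Sdc4 against 11.01 and 18.2 RPKM. The log2 difference of Sdc4 was the largest in size, 1.01 with a 95% interval of -0.70 to 2.72 (adjusted p = 0.957), and it dropped to 0.29 without posterior medial replicate 2. Gpc2 had 0.35 (95% interval -0.47 to 1.17), and 0.11 without that library. Of the 9 genes tested none was called and none had an unadjusted P under 0.05, against 0 (0%) and 159 (1.54%) of 10324 genes. The groups overlapped for all 9, against 6.62% of genes without overlap, and for Gpc5, which failed the minimum. The intervals of only 3 of the 9 lay within a 2-fold difference, and those of the other 6 reach past it.

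Whether the medial-lateral difference itself differed between anterior and posterior palate was tested as an interaction too, taking medial minus lateral in the anterior palate and subtracting the same in the posterior palate. None of 9 genes was called, against 1 (0.00902%) of 11089 genes, and none had an unadjusted P under 0.05, against 373 (3.36%). The largest t-ratio was that of Gpc6, with a contrast of -0.45 on the log2 scale (95% interval -1.02 to 0.13, adjusted p = 0.964).

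Along the anterior-posterior axis the most abundant member had the lowest adjusted p of the family. Gpc3 ranged from 165 over a median of 226 to 281 RPKM in the 13 anterior libraries and from 138 over a median of 177 to 225 RPKM in the 12 posterior ones. The ranges overlapped widely. The means were 225 ± 39.3 (SD, n = 13) and 181 ± 33.0 RPKM (SD, n = 12), a log2 difference of posterior minus anterior of -0.32 (95% interval -0.55 to -0.09, P = 0.00768, adjusted p = 0.128). The posterior mean was the lower at all 4 positions, with 168 against 212 RPKM in medial, 184 against 264 in lateral, 192 against 195 in oral and 177 against 229 RPKM in nasal libraries. Within libraries that share a position and a sequencing run, it was lower in 4 of 4 combinations, by 0.11 to 0.40 in size on the log2 scale. Each combination held 1 to 3 libraries per region, all among those compared above, and the share of all genes with such a result was not computed. With each library centred on its median gene the adjusted p was 0.0600, and with run as a term it was 0.871.

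The mean of Gpc2 was 31.2 ± 5.46 RPKM over anterior libraries (SD, n = 13) and 26.9 ± 5.10 RPKM over posterior ones (SD, n = 12), a log2 difference of -0.22 (95% interval -0.46 to 0.03, P = 0.0786, adjusted p = 0.401). It was lower in the posterior libraries in 4 of 4 combinations of position and run. Sdc1 and Sdc2 had nearly equal means, 32.5 and 33.0 RPKM for Sdc1 and 45.9 and 45.2 RPKM for Sdc2, with 95% intervals of the log2 difference of -0.20 to 0.24 and -0.29 to 0.23. Gpc5 failed the minimum of 10 RPKM in at least 6 libraries, which it reached in none, and without a minimum its log2 difference was -1.26 (95% interval -2.33 to -0.20, adjusted p = 0.291), and -0.84 without both libraries that stood apart. Of the 9 genes tested none was called, against 286 (3.32%) of 8608 genes, and 1, Gpc3, had an unadjusted P under 0.05, against 1321 (15.3%). The groups overlapped for all 9, against 0.267% of genes without overlap, and for Gpc5. All 9 intervals lay within a 2-fold difference, the widest reaching 1.75-fold.

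The study's thresholds of a P under 0.05 and a fold change over 2, applied here to the unadjusted P of limma where the study compared anterior and posterior with a pooled Audic-Claverie test, were met by 0 of the 9 genes tested in each of these 5 comparisons of groups. Of all genes tested, 2.37% met them along the medial-lateral axis of the anterior palate and 1.12% along that of the posterior palate. Along the oral-nasal axis the shares were 1.44% and 3.50%, and between posterior and anterior libraries the share was 1.75%.

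**Figure D3:**
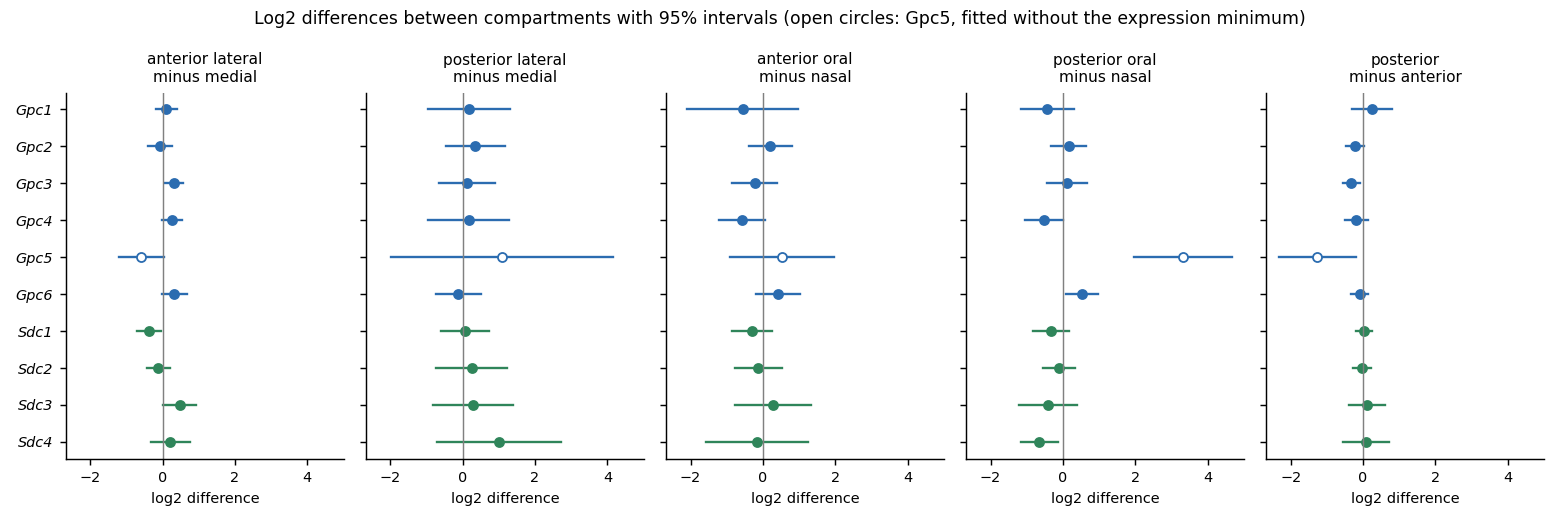
Log2 differences of RPKM + 0.1 (x axis, 1 unit is a 2-fold difference) of the 10 genes in the 5 comparisons of groups, with points for the estimates of limma and lines for their 95% intervals, glypicans in blue and syndecans in green. Open circles mark Gpc5, which was fitted without the expression minimum. Except for Gpc5, and for Sdc4 between posterior lateral and medial libraries, every estimate lies within 1 unit of 0.

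Gpc1, Sdc3 and Sdc4 deviated together from their compartment means. Gpc1 ranged from 2.40 to 20.2 RPKM among the 3 anterior oral libraries, and Sdc3 from 18.2 to 36.6 RPKM among the 3 posterior nasal ones. The deviations of Gpc1 from its compartment means on the log2 scale had a Pearson r of 0.87 with those of Sdc3 and of 0.75 with those of Sdc4 over the 25 libraries, the highest of all pairs in the family. Sdc3 and Sdc4 had r = 0.57. Gpc3 had r = 0.64 with its neighbour Gpc4 and 0.62 with Sdc4, which lies on another chromosome. The neighbours Gpc5 and Gpc6 had r = 0.09. Values of 1 library share its depth and base composition, and no test is given.

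The libraries also differed in the levels of GC-rich relative to GC-poor transcripts. The GC tilt of a library, the median deviation of genes in the top quartile of transcript GC content less that of genes in the bottom quartile, ran from -1.29 in anterior oral replicate 1 to 1.04 in posterior oral replicate 2 on the log2 scale. A GC content was found for 86.3% of the 11913 genes. Over the 25 libraries the level of Gpc1, whose transcript is 59.1% GC, had a Pearson r of 0.89 and a Spearman rho of 0.71 with the tilt, and that of Sdc3, with 58.7% GC, had 0.81 and 0.75. For Sdc4, with 49.3% GC, they were 0.65 and 0.33, and for the other 7 genes r lay between -0.39 and 0.36. Without the 2 libraries farthest from the median tilt, r was 0.82 for Gpc1, 0.81 for Sdc3 and 0.61 for Sdc4. The part of the tilt in the values of these 3 genes was not tested, other than by a fit with the tilt as a term, in which Sdc4 had -0.75 between posterior oral and nasal libraries (adjusted p = 1.000).

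**Figure D4:**
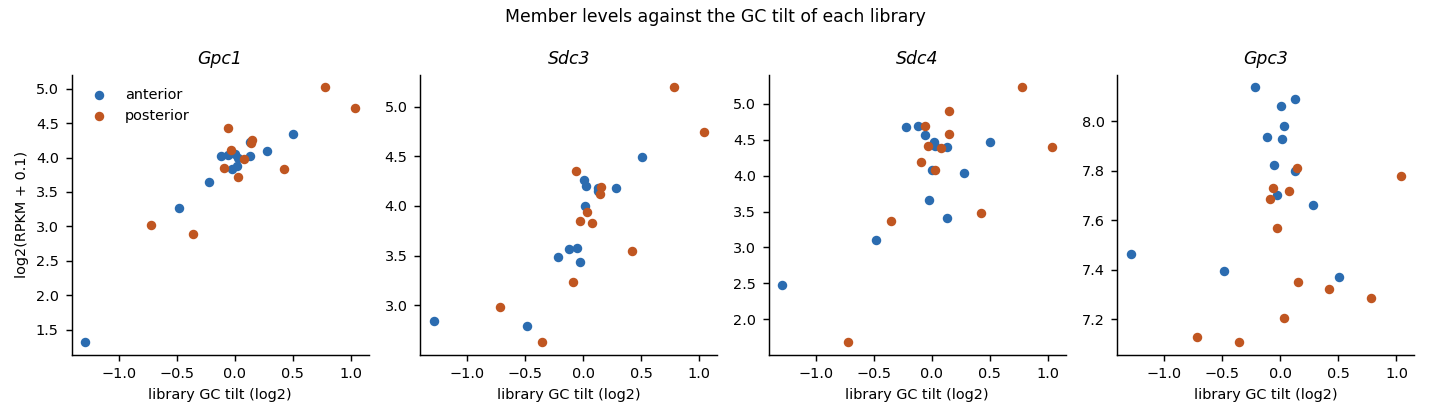
Levels of Gpc1, Sdc3, Sdc4 and Gpc3 as log2(RPKM + 0.1) against the GC tilt of each library (log2), with 1 point for each of the 25 libraries, anterior in blue and posterior in orange. The points of Gpc1 (r = 0.89) and Sdc3 (r = 0.81) climb with the tilt, and those of Gpc3 (r = 0.12) do not.

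The genes whose pattern over the 8 compartments was most like that of each member were found by the Pearson r of compartment means of log2(RPKM + 0.1) among 11912 other genes, as a description. The 3 nearest were Rangrf, Sepw1 and Cope for Gpc1 (r = 0.98 to 0.99), Mpdz, Mmp17 and Zfp12 for Gpc2 (0.95 to 0.98) and Mtfmt, Clec2h and Gm10845 for Gpc3 (0.97 to 0.98). They were Meis1, Rprd1a and 1700052K11Rik for Gpc4 (0.92 to 0.95), Arhgap21, Mir717 and Trp53inp2 for Gpc5 (0.94 to 0.95) and Fuca2, C130074G19Rik and Podxl for Gpc6 (0.96 to 0.97). Among the syndecans they were Ankrd50, Crtac1 and Hk2 for Sdc1 (0.95 to 0.96), Il18, 1110012L19Rik and AI429214 for Sdc2 (0.97 to 0.99), Atpaf2, Ascc2 and Drosha for Sdc3 (0.95 to 0.96) and Fance, Trim37 and Oraov1 for Sdc4 (0.97 to 0.98). The number of genes with r over 0.9 ran from 4 for Gpc4 to 246 for Sdc4, so that the pattern of Gpc4, high in both nasal and in the anterior lateral compartments, was shared by the fewest.

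The rest of the heparan sulfate pathway was examined in 4 lists with 52 genes, all of them in the table. The lists were chosen with earlier results of these data known, so that their shares of called genes are a description and no test of the pathway. Over the 8 compartments 8 of 42 genes tested were called, against 4.42% of all genes, 4 of 10 other core proteins, 4 of 13 enzymes that modify or break down the chains, 0 of 10 enzymes that build the linker and the chain and 0 of 9 genes for release and cytoplasmic partners. In the comparison of posterior with anterior libraries 5 of 34 were called, against 3.32% of all genes. For anterior lateral against medial 3 of 38 were called, against 2.51%, and for posterior oral against nasal 2 of 39, against 1.25%. No gene of the 4 lists was called by limma between posterior lateral and medial libraries, where 3 of 37 had an unadjusted P under 0.05, against 1.54% of all genes, or between anterior oral and nasal libraries, where 1 of 37 did, against 2.98%. The same held for the medial-lateral and the oral-nasal interaction, with 5 of 41 and 3 of 40 genes at an unadjusted P under 0.05, against 3.36% and 3.38%.

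Among the other core proteins, Nrp1, a receptor for semaphorins and VEGF that can carry a sugar chain, was called in 3 of the 5 comparisons of groups. Its means were 54.4 ± 2.48 and 28.9 ± 0.43 RPKM (SD, n = 3 each) in anterior lateral and medial libraries, a log2 difference of 0.91 (adjusted p = 0.00649). They were 17.3 ± 1.51 and 6.21 ± 0.63 RPKM in posterior oral and nasal libraries (log2 difference 1.47, adjusted p = 0.0163), and 11.9 ± 4.52 and 38.8 ± 11.5 RPKM in all posterior and all anterior libraries (log2 difference -1.75, adjusted p = 2.23e-06). Leaving out anterior lateral replicate 3 ended the first call (adjusted p = 0.0516), and leaving out any posterior nasal library or posterior oral replicate 3 ended the second (adjusted p up to 0.132). With the run as a term the first call was lost (1.03, adjusted p = 1.000), and in the fit of all oral and nasal libraries with run as a block the second was (0.92, adjusted p = 0.201). Nrp1 is also strongly expressed in vessels, whose markers moved along the first 2 of these axes as given above, and their part in its values was not tested.

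Tgfbr3, the TGF-beta coreceptor betaglycan, had 33.2 ± 2.14 and 17.3 ± 2.14 RPKM in anterior lateral and medial libraries (log2 difference 0.94, adjusted p = 0.0143), a call lost without anterior lateral replicate 2 or 3 or anterior medial replicate 2 (adjusted p up to 0.0806) and with the run as a term (1.09, adjusted p = 1.000). Srgn, the proteoglycan of blood cell granules, was higher in posterior oral than nasal libraries (6.60 and 1.52 RPKM, log2 difference 2.18, adjusted p = 0.0423), and leaving out any of the 3 posterior nasal libraries ended the call (adjusted p up to 0.159). Srgn met the minimum only through the 3 posterior oral libraries, and in the fit of all oral and nasal libraries its log2 difference was 0.66 (adjusted p = 1.000). Cd44, the receptor for hyaluronan, some forms of which carry heparan sulfate, had 12.2 ± 5.14 RPKM in posterior and 24.5 ± 3.51 RPKM in anterior libraries (log2 difference -1.16, adjusted p = 0.00367), and with the run as a term the call was lost (-1.26, adjusted p = 0.0514).

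Among the enzymes that act on the chains, the largest difference was that of Hpse2, a heparanase that binds the chains without cutting them. Its compartment means were 11.8 to 24.7 RPKM in the anterior and 0.0810 to 0.287 RPKM in the posterior palate, with no overlap at any position (log2 difference -5.96, adjusted p = 2.46e-15). Hpse2 met the minimum only through anterior libraries. Its posterior values of 0 to 0.382 RPKM lie near the pseudocount of 0.1, so that the size of this difference depends on the pseudocount. Sulf2, which removes sulfate groups from the chains outside the cell, had 124 ± 9.09 RPKM in posterior lateral, 98.3 ± 12.9 in posterior oral and 120 ± 13.4 RPKM in posterior nasal libraries, but 63.0 ± 16.7 in posterior medial ones, next to compartment means of 59.3 to 66.1 RPKM in the anterior palate. The log2 difference of posterior minus anterior was 0.66 (adjusted p = 0.00406). Glce, the epimerase that makes the chain flexible, was lower in the posterior libraries (43.6 and 62.9 RPKM, log2 difference -0.58, adjusted p = 0.0474), a call lost when any 1 of 18 libraries was left out (adjusted p up to 0.0763) and with the run as a term (adjusted p = 0.712). Hs3st3b1, a sulfotransferase that adds a rare late modification, had 0.844 ± 0.21 RPKM in anterior lateral and 7.89 ± 1.99 RPKM in anterior medial libraries (log2 difference -3.08, adjusted p = 0.00170). In this comparison Hs3st3b1 met the minimum only through the medial libraries, and with the run as a term the call was lost (-3.30, adjusted p = 1.000). Its call over the 8 compartments (adjusted p = 0.0234) was lost with the run as a term (adjusted p = 0.262) and without any anterior lateral library or anterior medial replicate 1 or 2 (adjusted p up to 0.0930). Spock3, another core protein, was called over the 8 compartments (adjusted p = 0.0103, but 0.200 with the run as a term), from 0.606 RPKM in posterior nasal to 6.24 RPKM in posterior medial libraries. Spock3 met the minimum only through posterior medial and posterior lateral libraries. It met it in only 22 of the fits that left out 1 library each.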

How the data were processed

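RNA from laser captured compartments of E14.5 CD1 mouse palates was amplified, tagmented and sequenced, with single-end reads of 50 bases. Per the labels the reads were aligned with TopHat to mm9, as the submitters' processing notes name them, with no version given. The authors deposited RPKM values from GeneSpring 12.6.1, in which they dropped duplicates and reads that aligned more than once. Alignment names of some libraries carry the names of other mouse lines followed by WT, while the labels give CD1 wild type for all. A column that kept its alignment's name was read as RPKM.

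Relative totals of reads came from the steps between low values. Their scale was searched within a set range, to bring the lengths of 4 members (Gpc1, Sdc1, Sdc2 and Sdc4) nearest to whole bases. These lengths came within 0.00287 of a base, which is the aim of the search and no separate check of the totals. The lengths of the others were taken from the longest coding transcript of GENCODE M21, so that their reads are approximate. Depth limits low genes most: at a median depth 1 read of Gpc5 is worth 0.108 RPKM, and counting error at its median is 22.4%, against 2.53% for Gpc3.

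Comparisons used limma 3.58.1 (lmFit, eBayes) in R 4.3.3 on log2(RPKM + 0.1), with p-values adjusted by Benjamini-Hochberg over every gene in the fit. The lateral minus medial, oral minus nasal and interaction fits used only the libraries compared and the genes that reached 5 RPKM in 3 or more of them, and posterior against anterior used all 25 libraries and the genes that reached 10 RPKM in 6 or more. Other values were computed with Python 3.11.15, numpy 2.4.6, pandas 2.3.3 and scipy 1.17.1. The fits were tested on simulated data. Groups and replicate numbers are from the labels. In a replicate check the deviations of same-numbered anterior oral and nasal libraries had correlations of 0.130 to 0.239 over genes. Libraries with different numbers were not compared, so that this check cannot show whether the numbers pair libraries. The main fits used no pairing, and no call of a member changed with replicate blocks.

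The members and lists were chosen with earlier results of these data known. The genes named are all members, the 3 nearest genes of each, and up to 3 genes per direction from each pathway list with the lowest adjusted p among those called. Alternatives were pseudocounts of 1 and 0.01, centring on the median, no expression minimum, replicate blocks, leaving out each library, and fits of all 25 libraries without and with the sequencing run. Fits with the GC tilt, of all oral and nasal libraries together and without both libraries that stood apart were chosen after seeing the data. Promoters of 3 members and protein sequences were not used here.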

Additional observations from a re-analysis of the deposited data

Results flagged for a closer look

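Gpc2 in anterior nasal replicate 1 lay far below the other anterior nasal libraries, at 18.6 RPKM against 28.8, 29.5 and 29.2 RPKM. Its gap to the nearest library was 0.932 of the whole range of the 4 libraries, above the 95% critical value of Dixon's test. Only the anterior nasal compartment, with 4 libraries, could be examined in this way, and among the 10 genes the other 9 had ratios of 0.121 to 0.695. Chance flags 1 in 20 such groups. Without this library the log2 difference of Gpc2 between anterior oral and nasal libraries was 0.04, against 0.21 with it.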

How the results depend on the processing

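The number of glypicans and syndecans called was 0 in every comparison and stayed 0 in 169 of 173 alternatives. The 4 others all concern Gpc5 over the 8 compartments, where 1 gene was called with a pseudocount of 1, without both libraries that stood apart, and without posterior medial replicate 1 or 2, and leaving out each library in turn gave 0 to 1. Of 1608 values of the 10 genes under the alternatives, 86 changed sign, each at an unadjusted P of 0.113 or above, and among the 425 values of the members' differences given in the text 1 did, Sdc1 between anterior lateral and medial libraries with the run as a term (0.13). The cause was not tested. The count of all genes called depended more on the processing: with 173 alternatives it moved by over 1.5 times in 76, and ran from 0 to 299 for anterior lateral against medial, 0 to 42 for posterior lateral against medial, 0 to 69 for anterior and 11 to 143 for posterior oral against nasal, 143 to 506 for posterior against anterior, 0 to 11 and 0 to 10 for the medial-lateral and oral-nasal interactions and 177 to 917 over the 8 compartments. With the replicate block, 157, 0, 0, 90 and 267 genes were called in the 5 comparisons of groups, against 262, 0, 0, 132 and 286 without it, and no call of a member changed. In the replicate check the correlations of same-numbered libraries were -0.155 to 0.00719 for anterior lateral and medial, 0.0361 to 0.277 for posterior lateral and medial and -0.0755 to 0.418 for posterior oral and nasal libraries. Centring on the median changed no direction of a difference given in the text.

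Counting error limits Gpc5, with a median of 19.9 reads, and differences of 2-fold were within the intervals of most members between posterior lateral and medial libraries.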
